A study of Homo sapiens with 2 samples.

Results

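Genes of pre-mRNA splicing and of RNA unwinding were followed in 2 libraries of cultured human cells labelled HAL-01, a cell line that the labels describe as pre-B acute lymphoblastic leukaemia. The members are the protein-coding genes whose symbols, in the gene annotation GENCODE 29, begin with SRSF, SNRP, HNRNP, SF3A, SF3B, PRPF, LSM or DHX, or with RBM or DDX and a digit, leaving out DDX58. The annotation holds 180 such symbols, and 74 of them, among 16145 genes in all, had a value in at least 1 library. The other 106 were not analysed here and are not read as unexpressed. One library is of a culture labelled Control, and what it received is not stated in the labels. The other is of a culture labelled AG, kept for 24 h with 0.8 mM 1,5-AG (1,5-anhydroglucitol, a polyol related to glucose). With 1 library a condition there is no test between conditions, no p-value, and no way to tell the agent from any other difference between the cultures.

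Introns are removed from pre-mRNA by the spliceosome, which is built anew on each intron from small nuclear ribonucleoproteins (snRNPs), particles of a short RNA with a ring of Sm or Lsm proteins and further proteins of their own. SR proteins and heterogeneous nuclear ribonucleoproteins (hnRNPs) bind the pre-mRNA and tilt the choice between splice sites, often in opposite directions. DEAD-box (DDX) and DEAH-box (DHX) helicases use ATP to remodel RNA and its proteins, in the spliceosome and also in ribosome assembly, mRNA export, translation and the sensing of viral RNA. Several of these genes, SF3B1, SRSF2, PRPF8 and DDX41 among them, are recurrently mutated in myeloid neoplasms.

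The level of a gene is given in FPKM, which scales the fragments of a gene by its length and by the total of its library, so that levels can be compared between genes. Fragment numbers could be recovered from FPKM for 98.8% of expressed genes and for all expressed members, and the library totals implied were 16240451 fragments in Control and 14857372 in AG. A gene counts as expressed here when both libraries list it and its mean reaches 1 FPKM, which held for 62 members and for 5528 genes in all. For these members the fragment numbers ran from 107 to 29016 a library. The AG to Control ratio of FPKM is printed with, after it, its exact 95% Clopper-Pearson interval from those numbers, which covers counting error only, leaves out the variation between cultures, and is not adjusted over genes. A separate log2 ratio, log2((AG FPKM + 1)/(Control FPKM + 1)), is used for counts and medians, and its pseudocount draws low genes towards 0.

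The lineage markers went against the label in both libraries. Of 14 genes of B cell precursors 8 were listed in Control and 5 in AG, with a highest value of 1.84 and 2.21 FPKM and a sum of 2.80 and 2.89. Of 13 genes of monocytes and granulocytes 7 were listed in each library, and they summed to 952 FPKM in Control against 497 in AG. CTSG, a granule protease, carried that difference, at 743 and 194 FPKM, and without it the other 6 summed to 209 and 303. Those 6 went both ways. ELANE, at 47.6 and 41.8, and MPO, at 4.75 and 1.70, were lower in AG. S100A9, at 66.3 and 131, LYZ, at 75.6 and 104, CD33, at 12.9 and 15.9, and ITGAM, at 1.55 and 8.30, were higher. The markers without a value are not read as 0. The part of cell identity in the values below was not tested.

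The splicing factors and helicases were listed at similar levels in both libraries, with 1 exception past 1.5-fold. Their median level was 19.5 FPKM, beside 6.36 FPKM over all expressed genes. The median log2 ratio was -0.04 over the 62 expressed members and -0.03 over all expressed genes. Of the 62, 59 were within 1.2-fold on the log2(FPKM + 1) scale (95.2%), beside 75.3% of all expressed genes and 81.1% of the protein-coding ones, the class of every member. Low genes scatter more, and where the mean reached 10 FPKM the shares were 40 of 42 members (95.2%), 84.5% of 2000 genes and 85.3% of 1889 protein-coding genes. DDX60L and RBM41 were the members at least 1.2-fold higher in AG (11.1% of all expressed genes were), and RBM14 was the one at least 1.2-fold lower (13.7% of all were).

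**Figure D1:**
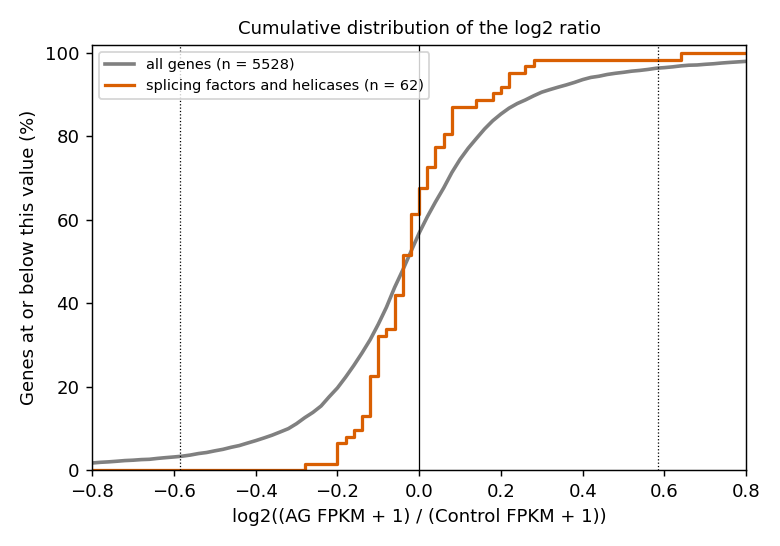
Cumulative percentage of genes (vertical axis) at or below each log2((AG FPKM + 1)/(Control FPKM + 1)) (horizontal axis), for 62 splicing factor and helicase genes (orange) and all 5528 expressed genes (grey). Dotted lines mark 1.5-fold. The orange curve is steeper, with 59 of 62 genes within 1.2-fold of equal.

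At the 1.5-fold threshold 1 member, DDX60L, was higher in AG, beside 3.60% of all expressed genes and 2.45% of the protein-coding ones. No member was 1.5-fold lower, beside 3.33% and 1.33%. Counting intervals lay above 1 for 7 of 62 members (11.3%, against 16.9% of all expressed genes with an interval) and below 1 for 16 of 62 (25.8%, against 22.9%). Among protein-coding genes these shares were 19.6% above and 25.8% below. The share below 1 is that of protein-coding genes and the share above 1 is lower, and neither was tested. By sign, 42 members were below 0 and 20 above, that is 67.7% below 0, beside 56.8% of all genes. With AG scaled by the median of ratios over all genes, a factor of 1.03, the split by sign was 32 below 0 and 30 above (50% of all genes were below 0, as this scaling sets it), and the intervals gave 10 above and 13 below, beside 20.6% and 18.1% of all genes, so the balance between directions moved with the scaling. Intervals of DDX27, RBM5 and RBM15 then included 1, and those of DHX9, LSM10 and RBM28 lay above 1.

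**Figure D2:**
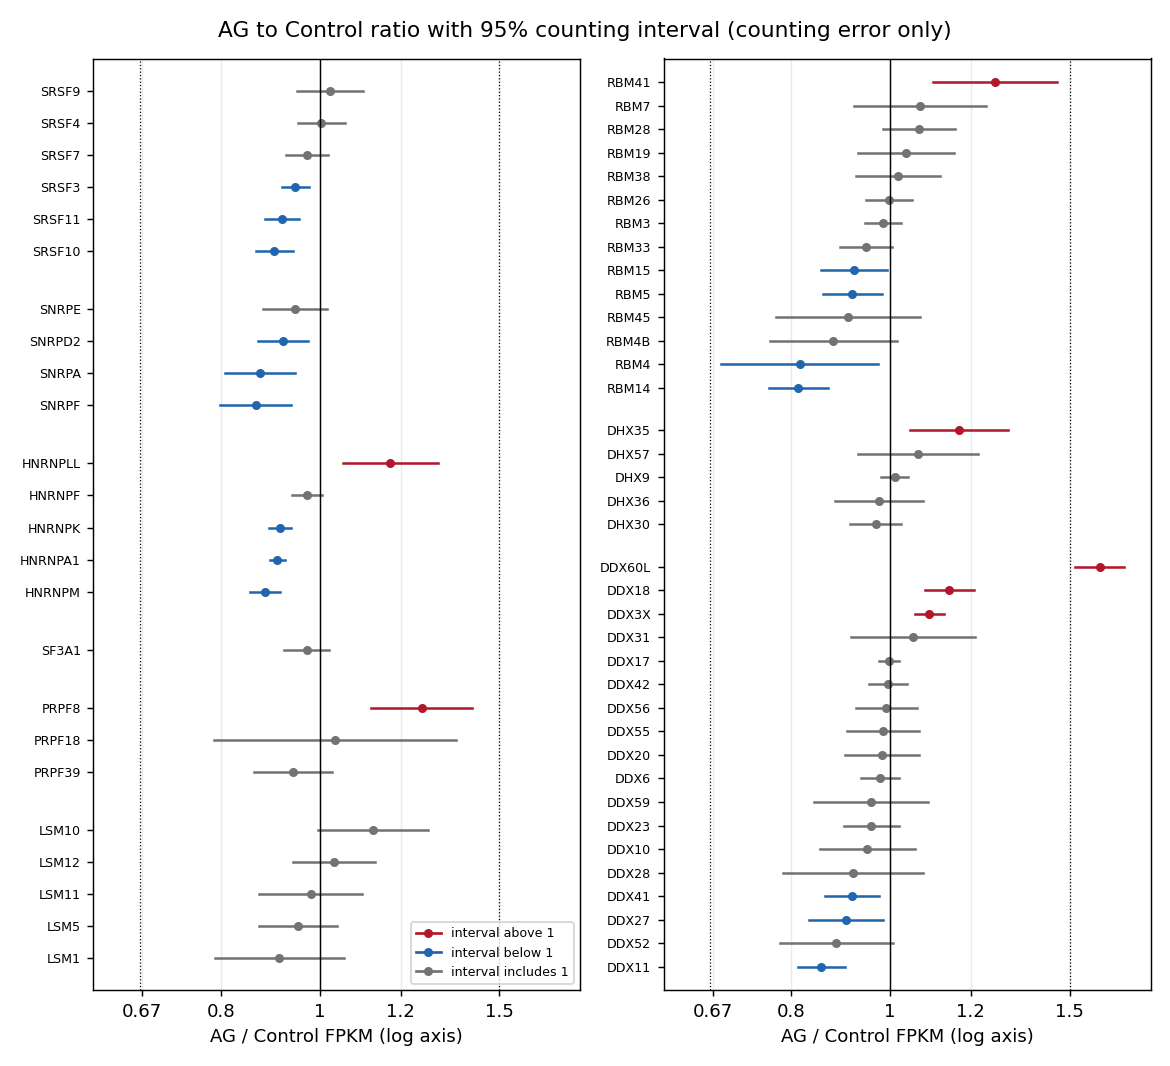
AG to Control FPKM ratio (horizontal log axis) of the expressed members, by family, with the 95% counting interval from the fragments of 1 library a condition. Red intervals lie above 1, blue below 1 and grey include 1, and dotted lines mark 1.5-fold. DDX60L alone lies past 1.5-fold. The Y-linked member is not drawn.

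DDX60L stood furthest from equal among the expressed members. DDX60L (ENSG00000181381, chromosome 4, 168356735 to 168537786, minus strand, GRCh38) encodes a DExD/H-box protein, a paralogue of DDX60, and is known as a gene induced by interferon with antiviral activity. It had 11.0 FPKM in Control against 17.6 FPKM in AG, from 2169 and 3184 fragments. The ratio was 1.60 (95% counting interval 1.52 to 1.70). Its log2 ratio was 0.64, and 0.50 with a pseudocount of 5 FPKM, which is under 1.5-fold. DDX60 and DHX58, helicase genes that respond to interferon too, were not analysed here.

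RBM41 had the next highest log2 ratio, 0.28. RBM41 (ENSG00000089682, chromosome X, 107064420 to 107118823, minus strand) encodes an RNA-binding protein of the minor spliceosome, which removes a rare class of introns. It had 3.80 FPKM in Control against 4.82 in AG (ratio 1.27, 1.10 to 1.46). At the other end RBM14 (ENSG00000239306, chromosome 11, 66616582 to 66627347, plus strand), a component of paraspeckles and a transcriptional coactivator, had 19.9 and 16.1 FPKM (ratio 0.813, 0.761 to 0.869).

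The 250 bases before the RefSeq start sites of these 3 genes (GRCh38.p14) are shown because they are the members furthest from equal in each direction. They run in the direction of transcription. In DDX60L and RBM41 the capitals mark GAAANNGAAA on either strand, the core of the interferon-stimulated response element, and in RBM14 they mark CCAAT on either strand. CCAAT is not particular to RBM14. It is also in the DDX60L sequence, where it is left in small letters, and was found for 37 of 68 members. DDX60L is at chr4:168480493-168480742 (minus strand), RBM41 at chrX:107118823-107119072 (minus strand) and RBM14 at chr11:66616380-66616629 (plus strand).
DDX60L: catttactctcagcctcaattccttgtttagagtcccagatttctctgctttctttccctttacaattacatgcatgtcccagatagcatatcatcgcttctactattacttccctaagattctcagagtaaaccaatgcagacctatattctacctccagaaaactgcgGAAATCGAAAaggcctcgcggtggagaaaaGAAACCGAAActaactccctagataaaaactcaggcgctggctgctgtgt
RBM41: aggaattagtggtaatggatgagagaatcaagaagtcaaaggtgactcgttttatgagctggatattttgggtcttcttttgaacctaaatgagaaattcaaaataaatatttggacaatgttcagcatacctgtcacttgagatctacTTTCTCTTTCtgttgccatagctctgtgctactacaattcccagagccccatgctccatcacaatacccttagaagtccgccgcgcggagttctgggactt
RBM14: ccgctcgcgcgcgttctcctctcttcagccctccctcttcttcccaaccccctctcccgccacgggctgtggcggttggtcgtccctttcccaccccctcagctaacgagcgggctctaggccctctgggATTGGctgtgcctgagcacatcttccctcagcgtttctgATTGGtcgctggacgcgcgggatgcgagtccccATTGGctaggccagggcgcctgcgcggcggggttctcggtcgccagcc

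The DDX60L sequence held GAAANNGAAA 2 times, starting 80 and 50 bases before the start site. The RBM41 sequence held it once, on the opposite strand, 101 bases before the start site, and another RefSeq start of RBM41 had 0 matches. Sequences were found for 68 of the 73 members looked up, with 90 start sites in all. No other member's held the motif, so it was in 2 of the 90 member promoters (2.22%). The shares were 3.02% of 35116 promoters of the same length and 2.56% of 5313 promoters of expressed genes. At least 2 matches were found in 0.225% of all promoters. The motif was chosen after the values were seen, and a match is a description of letters, not of a bound site or a cause.

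Among other short motifs, searched on both strands, CCGGAAG, the core bound by ETS factors, was in 21 of the 90 member promoters (23.3%), beside 8.52% of all promoters and 16.0% of 5313 promoters of expressed genes. CCAAT was in 40 (44.4%), beside 32.0% and 33.9%. CACGTG, the E-box, was in 7 (7.78%), beside 6.34% and 8.55%. The longer GCGCATGCGC of NRF1 was in 3 (3.33%), beside 1.03% and 1.73%, and GGGGCGGGG, a GC box, was in 12 (13.3%), beside 15.1% and 23.9%. No share was tested, and promoters of 1 gene can overlap.

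RBM14 has neighbours among the members. RBM4 and RBM4B, regulators of alternative splicing, lie beside it on chromosome 11, at 66638617 to 66668374 and at 66664998 to 66677921. RBM4 had 2.82 FPKM in Control against 2.30 in AG (ratio 0.815, 0.682 to 0.973). RBM4B had 6.24 and 5.49 (ratio 0.879, 0.762 to 1.01). All 3 neighbours were lower in AG, and the interval of RBM4B includes 1. Exons of RBM4 overlap those of RBM4B, and exons of RBM14 and RBM4 overlap those of the readthrough gene RBM14-RBM4, which was listed in AG only, at 0.157 FPKM from 6 fragments. Where the counting assigned shared reads was not tested.

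The SR proteins, which bind exonic enhancers and recruit the splicing machinery, had ratios between 0.903 and 1.02. Of 12 SRSF symbols 7 were listed and 6 were expressed, with 4 log2 ratios below 0, 2 above and a median of -0.06. Among all expressed genes 56.8% were below 0. SRSF3, which also couples splicing to mRNA export, had 77.3 FPKM in Control against 73.1 in AG (ratio 0.946, 0.918 to 0.975). SRSF11 had 41.8 and 38.4 (ratio 0.919, 0.884 to 0.955), and SRSF10, an SR protein that represses splicing when dephosphorylated, had 25.7 and 23.2 (ratio 0.903, 0.866 to 0.941). These 3 were the SR genes whose interval lay below 1. Among all genes that share was 30.3% at 20 to 50 FPKM and 42.5% at 50 FPKM or more.

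The remaining SR genes had intervals that include 1. SRSF7 had 57.7 FPKM in Control against 56.1 in AG, SRSF9 had 24.8 and 25.4, and SRSF4 had 20.4 in each. SRSF12 was near 0, with 9 fragments in Control and 3 in AG, too few to set a ratio (0.364, 0.0634 to 1.46). SRSF2, which is mutated in myelodysplasia, was not analysed here.

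The 4 expressed Sm and U1 genes were all lower in AG, and 3 of their intervals lay below 1, also when scaled by the median of ratios. Narrow intervals at high levels are often below 1: among all genes the share was 30.3% at 20 to 50 FPKM and 42.5% at 50 FPKM or more, and 56.8% of all expressed genes were below 0. The median log2 ratio of the SNRP family was -0.15. SNRPD2, a subunit of the Sm ring, had 118 FPKM in Control against 108 in AG (ratio 0.921, 0.871 to 0.973). SNRPF, another subunit, had 28.6 and 24.7 (ratio 0.865, 0.799 to 0.937). SNRPA, the A protein of the U1 snRNP, which recognises the 5-prime splice site, had 36.6 and 32.0 (ratio 0.874, 0.807 to 0.946). The ring subunit SNRPE, at 48.2 and 45.6, had a ratio of 0.946, with an interval (0.880 to 1.02) that includes 1. SNRPD2, SNRPF and SNRPE have pseudogenes of their names in the annotation, with which reads can be shared. Without these genes SNRPA is the only expressed SNRP gene left, at a log2 ratio of -0.19. The Sm core gene SNRPB was listed in AG only, at 60.0 FPKM from 1139 fragments, and its missing Control value is not read as 0.

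The 3 highest levels among the members were those of hnRNP genes, and 4 of 5 were lower in AG under each scaling (median log2 ratio -0.13, or -0.09 scaled by the median of ratios). HNRNPA1, which binds splicing silencers, had 267 FPKM in Control against 242 in AG (ratio 0.909, 0.893 to 0.924). HNRNPK, a poly(C)-binding protein, had 174 and 159 (ratio 0.914, 0.892 to 0.936), and HNRNPM had 80.0 and 70.7 (ratio 0.883, 0.854 to 0.914). All 3 intervals lay below 1. Among all expressed genes at 50 FPKM or more, as deposited, 42.5% had an interval below 1 and 57.8% were below 0.

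HNRNPF, which binds G-rich RNA, had 135 FPKM in Control against 131 in AG (ratio 0.972, 0.939 to 1.01). HNRNPLL, known for its part in the exon switch of CD45 in lymphocytes, was the low member of the family and the one higher in AG, at 6.85 and 8.03 FPKM (ratio 1.17, 1.05 to 1.31). HNRNPA1 has 74 pseudogenes of its name in the annotation, with which reads can be shared. Of these HNRNPA1P10 was listed at 31.9 FPKM in Control against 28.6 in AG (ratio 0.896, 0.784 to 1.02). HNRNPK, HNRNPM and HNRNPF have such pseudogenes too, and without these 4 genes the family is HNRNPLL alone, at a log2 ratio of 0.20.

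**Figure D3:**
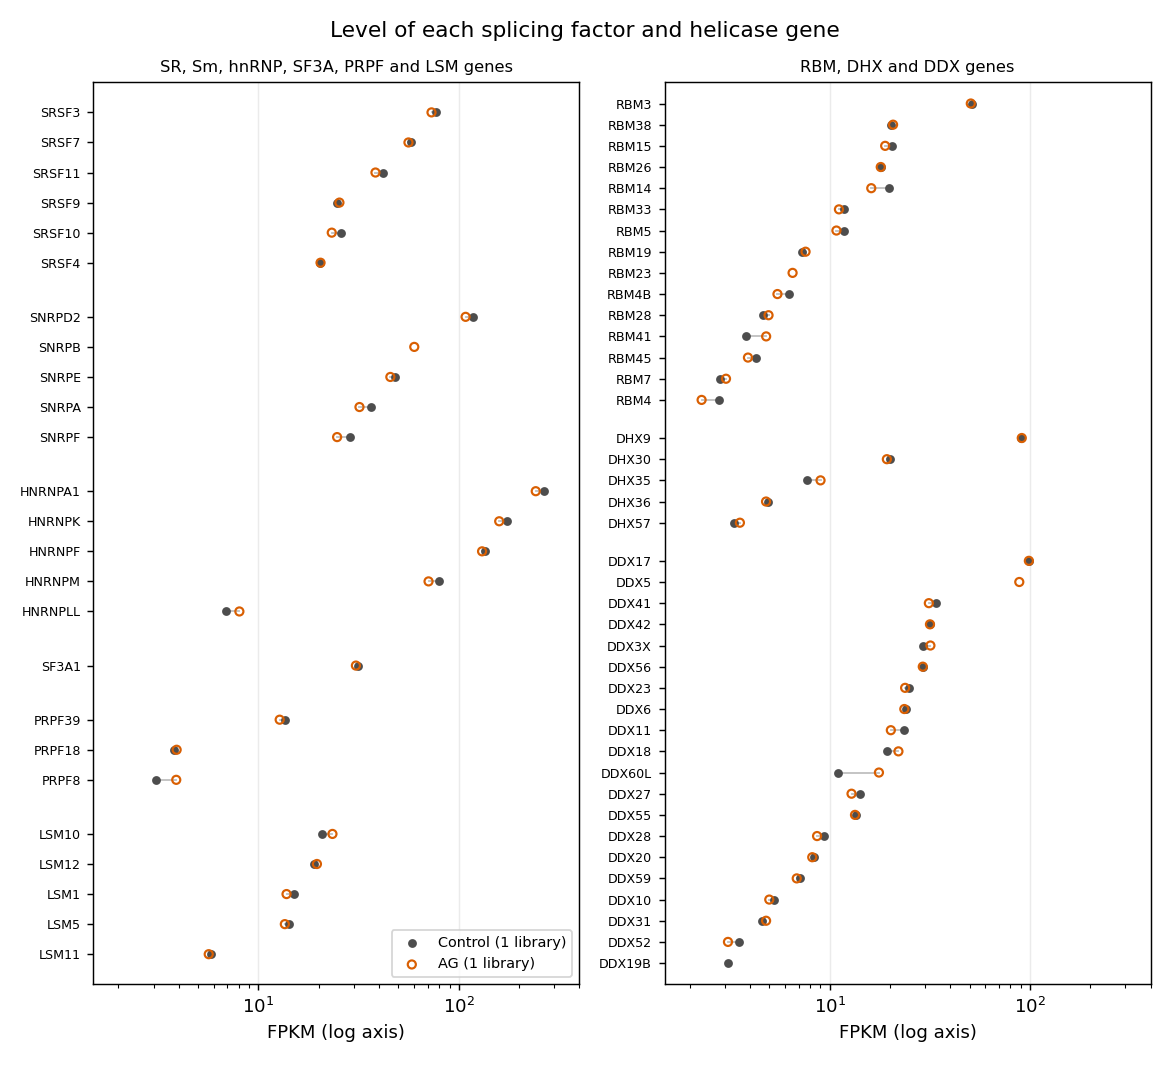
FPKM (horizontal log axis) of each expressed member in Control (filled grey) and AG (open orange), 1 library each, by family and from high to low. A lone point is a gene listed in 1 library, such as DDX5 and SNRPB. HNRNPA1, at 267 and 242 FPKM, is highest, and the points of most genes overlap or nearly touch. Members under 1 FPKM and the Y-linked member are not drawn.

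Of the proteins that build the U2 and U5 particles few were listed. SF3A1, a U2 snRNP subunit needed to recognise the branch point, had 31.6 FPKM in Control against 30.7 in AG (ratio 0.971, 0.923 to 1.02). SF3B1 and the other SF3 genes were not analysed here. PRPF8, the large protein at the catalytic centre of the spliceosome, had 3.09 and 3.89 FPKM (ratio 1.26, 1.12 to 1.41), from 569 and 655 fragments. Its level lay at percentile 33.4 of all expressed genes. Exons of PRPF8 overlap those of another gene, and where shared reads were counted was not tested.

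PRPF39, which acts with the U1 snRNP, had 13.6 and 12.8 FPKM, and PRPF18, a second-step factor, had 3.77 and 3.91. Both intervals include 1 (0.862 to 1.03 and 0.787 to 1.36). PRPF40B was listed in Control only, at 0.156 FPKM. The other 9 PRPF symbols were not analysed here.

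As deposited, all 5 expressed Lsm genes had an interval that includes 1, and their median log2 ratio was -0.03, or 0.0048 when scaled by the median of ratios. The interval of LSM10 lay above 1 under that scaling (1.02 to 1.31) and under a common total. LSM5, a subunit of the ring on U6 RNA, had 14.2 FPKM in Control against 13.5 in AG. LSM1, which turns such a ring towards mRNA decay in the cytoplasm, had 15.1 and 13.8 (ratio 0.913, 0.789 to 1.06). LSM10 and LSM11 belong to the U7 snRNP, which cuts the ends of histone mRNAs. LSM10 had 20.8 and 23.4 (ratio 1.13, 0.996 to 1.28), and LSM11 had 5.77 and 5.65 (ratio 0.979, 0.871 to 1.10). The 2 U7 genes lay on either side of 1. LSM12 had 19.0 and 19.6. The prefix also takes in LSMEM1 and LSMEM2, membrane proteins outside this family, listed in Control only at 0.214 and 0.0859 FPKM.

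Among 14 expressed RBM genes 9 were lower and 5 higher in AG, with a median log2 ratio of -0.05. When scaled by the median of ratios 7 were lower and 7 higher. The shares of all expressed genes below 0 were 56.8% as deposited and 50% under that scaling. RBM3, a cold-inducible protein, was the highest at 51.5 FPKM in Control against 50.7 in AG (ratio 0.985, 0.945 to 1.03). RBM38, which binds the mRNA of p21, had 20.4 and 20.7, and RBM26, a nuclear RNA decay factor, had 18.0 in each. These 3 were near equal.

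Beside RBM14 and RBM4, intervals lay below 1 for 2 RBM genes, both of which included 1 when scaled by the median of ratios. That made 4 of 14 intervals below 1, or 2 under that scaling, beside 22.9% and 18.1% of all expressed genes. RBM15, which guides the RNA methylation complex and is fused in a megakaryoblastic leukaemia, had 20.5 and 18.9 FPKM (ratio 0.922, 0.857 to 0.993). RBM5, a splicing regulator of apoptosis genes, had 11.8 and 10.8 (ratio 0.919, 0.860 to 0.981), and its exons overlap those of RBM6. The nucleolar proteins RBM28, at 4.65 and 4.95, and RBM19, at 7.32 and 7.58, had intervals that include 1, that of RBM28 lying above 1 when scaled by the median of ratios. So had RBM33, RBM45 and RBM7. RBM23 was listed in AG only, at 6.53 FPKM from 1361 fragments, and RBM44 rested on 4 and 6 fragments.

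Of the 5 expressed helicases of the spliceosome and splicing, 3 had intervals that include 1. DDX17, a cofactor of splicing and transcription, had 99.1 FPKM in Control against 98.8 in AG (ratio 0.997, 0.975 to 1.02) from 16085 and 14677 fragments. Its paralogue DDX5 was listed in AG only, at 88.5 FPKM from 12243 fragments, so no ratio is given. DDX42, which works with the U2 snRNP, had 31.8 and 31.7, and DDX23, a U5 helicase that releases U1, had 24.9 and 23.8.

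DDX41 and DHX35, helicases found in the catalytic spliceosome, lay on opposite sides of 1. DDX41, mutated in familial myeloid neoplasms, had 34.1 and 31.3 FPKM (ratio 0.918, 0.864 to 0.975). DHX35 had 7.71 and 9.01 (ratio 1.17, 1.05 to 1.30). Over the 5 expressed helicases of splicing the median log2 ratio was -0.0059, and 0.03 when scaled by the median of ratios.

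The helicases of ribosome assembly did not share a direction. Of 7 expressed genes 5 were below 0 and 2 above (56.8% of all expressed genes were below 0), with a median log2 ratio of -0.02. When scaled by the median of ratios 3 were below 0, beside 50% of all expressed genes (median 0.01 over the 7). DDX18 had 19.3 FPKM in Control against 22.1 in AG (ratio 1.14, 1.08 to 1.21), and 5 pseudogenes carry its name. DDX27 had 14.2 and 12.9 (ratio 0.905, 0.832 to 0.983), and its interval reached 1.01 when scaled by the median of ratios. DDX52, at 3.51 and 3.11, had a ratio of 0.886 (0.779 to 1.01).

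DDX56 had 29.4 and 29.2 FPKM, DDX55 had 13.6 and 13.4, DDX10 had 5.26 and 5.00, and DDX31 had 4.57 and 4.82, all with intervals that include 1. DDX47 was near 0 in both libraries, at 0.208 and 0.187 FPKM from 17 and 14 fragments, and its exons overlap those of APOLD1. Where reads of overlapping exons were counted was not tested.

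Other helicases act in the cytoplasm, the mitochondrion or on DNA. DHX9, which unwinds RNA and DNA in the nucleus, had 90.1 FPKM in Control against 91.1 in AG (ratio 1.01, 0.980 to 1.04). DDX3X, a translation helicase mutated in leukaemias and lymphomas, had 29.2 and 31.9 (ratio 1.09, 1.06 to 1.13). DDX6, of processing bodies and mRNA decay, had 24.2 and 23.6 (ratio 0.977, 0.936 to 1.02). As deposited, DDX3X alone of these 3 had an interval that leaves out 1, and when scaled by the median of ratios DHX9 did too (1.00 to 1.07, the lower bound just above 1).

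DDX11, a DNA helicase of sister chromatid cohesion, had 23.6 and 20.2 FPKM (ratio 0.857, 0.813 to 0.903), the lowest among the expressed DDX genes. It has a close pseudogene copy, DDX12P, listed at 13.1 and 9.78 FPKM (ratio 0.745, 0.657 to 0.844), so the split of reads between them is uncertain. DHX30 and DDX28, which serve the mitochondrial ribosome, had 19.9 and 19.3 and 9.41 and 8.66, with intervals that include 1. So had DDX20 of the SMN complex, which assembles snRNPs, DDX59, DHX36, which opens G-quadruplexes, at 4.94 and 4.82, and DHX57, at 3.35 and 3.57. DDX19B, a helicase of mRNA export, was listed in Control only, at 3.11 FPKM. The germ cell helicase DDX4 had 9 fragments in Control and 3 in AG. The Y-linked paralogue of DDX3X is in the counts, and its values are not given.

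The wider pathway, taken from 7 lists of 125 genes outside these families, had no gene past 1.5-fold. A larger share of it than of all expressed genes was lower in AG, which was not tested. Of 49 expressed genes none was 1.5-fold apart (beside 3.60% of all expressed genes higher and 3.33% lower). By sign 37 were below 0 and 12 above, that is 75.5% below 0, beside 56.8% of all expressed genes. The median log2 ratio was -0.09, beside -0.03 over all expressed genes. Intervals lay below 1 for 19 of 49 and above 1 for 5 (beside 22.9% and 16.9% of all expressed genes). Their median level was 15.5 FPKM, and 26.9% of all genes at 10 to 20 FPKM had an interval below 1. When scaled by the median of ratios 34 were below 0 and 15 intervals lay below 1, beside 50% and 18.1% of all expressed genes. The median log2 ratio was then -0.06, beside 0.00. The lists were written with earlier results of these data known, and the 76 genes without an expressed value do not enter these counts.

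**Figure D4:**
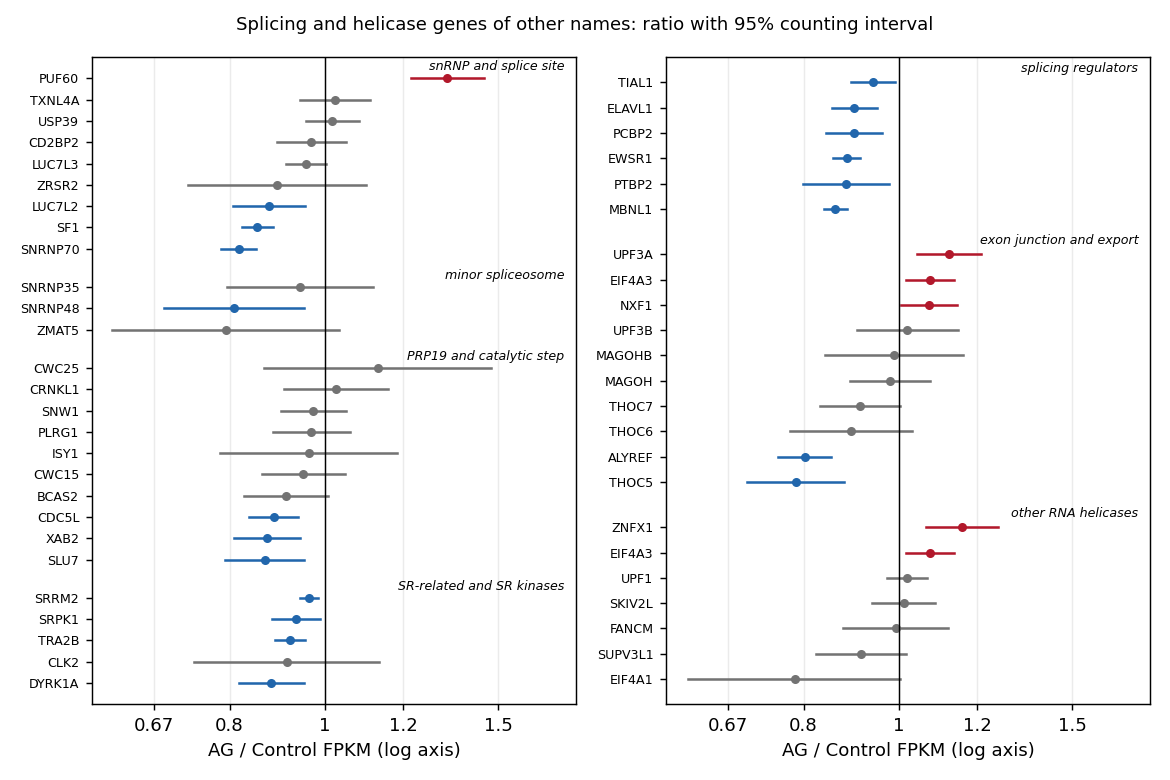
AG to Control FPKM ratio (horizontal log axis) with 95% counting interval for 49 expressed genes of the splicing and helicase lists outside the member families, 1 library a condition. Red lies above 1, blue below 1 and grey includes 1. All 6 splicing regulators are blue at the deposited scaling, and PUF60, at 1.33, is the highest. EIF4A3 is on 2 lists and drawn in both.

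In the list of snRNP and splice site proteins 6 of 9 genes were below 0, beside 56.8% of all expressed genes. SNRNP70, the U1-70K protein, had 73.3 FPKM in Control against 59.9 in AG (ratio 0.817, 0.785 to 0.851). SF1, which binds the branch point first, had 68.7 and 58.6 (ratio 0.853, 0.823 to 0.885). PUF60, which helps U2AF at the 3-prime splice site, went the other way at 12.3 and 16.3 (ratio 1.33, 1.22 to 1.45). TXNL4A, a U5 protein, had 14.4 and 14.8. Of the leukaemia genes in this list LUC7L2 had 12.1 and 10.7 (ratio 0.878, 0.807 to 0.955), ZRSR2 had 6.20 and 5.54 (0.894, 0.726 to 1.10), and U2AF1 was not analysed here.

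All 6 expressed splicing regulators outside the families had intervals below 1, beside 22.9% of all expressed genes. When scaled by the median of ratios 4 did (beside 18.1%), the intervals of TIAL1 and PTBP2 then including 1. The median level of this list was 25.8 FPKM. Among all genes at 20 to 50 FPKM 30.3% had an interval below 1 as deposited. MBNL1, which controls developmental exon switches, had 74.1 FPKM in Control against 63.9 in AG (ratio 0.862, 0.839 to 0.885). EWSR1, an RNA-binding protein of the FET family, had 52.7 and 46.6 (ratio 0.885, 0.857 to 0.913). TIAL1 was the nearest to equal, at 25.9 and 24.4 (0.941, 0.894 to 0.992). PTBP2 had 3.62 and 3.20 (0.883, 0.798 to 0.977), and its log2 ratio of -0.14 is drawn towards 0 by the pseudocount. The 17 genes of this list with no value in either library were not analysed here.

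The SR-related proteins and SR kinases were below 0 in 5 of 5 (beside 56.8% of all expressed genes). Of their intervals 4 lay below 1 (beside 22.9%), or 2 when scaled by the median of ratios (beside 18.1%), those of SRRM2 and SRPK1 then including 1. The median level of these genes was 24.2 FPKM. At 20 to 50 FPKM 30.3% of all genes had an interval below 1 as deposited. DYRK1A, a kinase of splicing factors, had 3.49 and 3.08 FPKM (ratio 0.882, 0.818 to 0.952), and TRA2B had 33.7 and 31.1 (ratio 0.922, 0.891 to 0.954). SRRM2, a scaffold of nuclear speckles, had 89.0 and 85.7, and SRPK1, which phosphorylates SR proteins, had 25.0 and 23.4.

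Of 10 PRP19 and catalytic step genes 8 were below 0, beside 56.8% of all expressed genes. The lowest were SLU7, a second-step factor, at 13.7 and 11.9 FPKM (0.868, 0.792 to 0.952), and XAB2 at 19.5 and 17.0. CWC25 and CRNKL1 were above 0, at 1.91 and 2.16 and at 7.46 and 7.65. The 3 minor spliceosome genes were SNRNP48, at 3.69 and 2.99 (0.809, 0.686 to 0.953), ZMAT5, at 2.67 and 2.12, and SNRNP35, at 3.94 and 3.71. All 3 were below 0 and 1 interval lay below 1 (beside 56.8% and 22.9% of all expressed genes), while RBM41, above, was higher in AG.

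The exon junction and export list went both ways, with 6 of 10 genes below 0, or 4 when scaled by the median of ratios. Of all expressed genes 56.8% and 50% were below 0. ALYREF, the adaptor that loads mRNA for export, had 94.0 FPKM in Control against 75.4 in AG (ratio 0.803, 0.754 to 0.854), and THOC5 had 5.69 and 4.47 (ratio 0.785, 0.700 to 0.880). UPF3A, a factor of nonsense-mediated decay, had 14.6 and 16.4 (ratio 1.12, 1.04 to 1.21), and EIF4A3, the DEAD-box helicase of the junction complex, had 26.3 and 28.3 (ratio 1.08, 1.02 to 1.14). Among 7 RNA helicases of other names the median log2 ratio was 0.01. ZNFX1, known as an interferon-stimulated helicase, was the highest at 7.15 and 8.29 (ratio 1.16, 1.07 to 1.26). EIF4A1, a translation initiation helicase, was the lowest at 1.88 and 1.48 (0.784, 0.611 to 1.00), with SUPV3L1 next at 11.2 and 10.2.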

How the data were processed

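RNA-seq was carried out on 1 library of Control and 1 of AG. Per the labels' protocols the kit was a stranded mRNA kit. The authors deposited 1 FPKM value for each listed gene. Per the submitters' processing notes, Trimmomatic, HISAT2, Cufflinks, HTSeq and hg38 were used. Not given in the sources used here were versions, annotation, strand setting and filters, so reads of overlapping, antisense or near-identical genes cannot be told apart (36 of 62 expressed members share exons with another gene).

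Of 16145 IDs 97.1% matched GENCODE 29. Single-transcript genes gave whole fragments, within 0.01, for 88.4% (Control) and 88.1% (AG). Fragment numbers came from the whole-number length nearest to the annotated one, within 3-fold, at which both values are whole, for 98.8% of expressed genes and all members. The fragment numbers and lengths served for the intervals, the fragments printed and the limit of 3 fragments, not for the log2 ratios. The steps were tested on simulated data.

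Named by rule were, in each family, the 2 highest by level and the 2 highest and 2 lowest by log2 ratio, members 1.5-fold apart, members listed in 1 library, genes mutated in leukaemia, and the 2 highest and 2 lowest of each outside list. Other members were added to complete a family. Members and lists were chosen with earlier results of these data known, and motifs after the values were seen. Promoters are from RefSeq (GRCh38.p14), for 250 bases before the start site. Tried as alternatives were other filters and fold thresholds, 2 rescalings, pseudocounts of 0.1 and 5 FPKM and leaving out members with named pseudogenes. The software was Python 3.11.15 with matplotlib 3.10.9, scipy 1.17.1, pandas 2.3.3 and numpy 2.4.6.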

Additional observations from a re-analysis of the deposited data

Results flagged for a closer look

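Genes listed in 1 library only lie outside every comparison. Of 16145 genes 2794 were listed in Control only and 2803 in AG only. Of 7653 protein-coding genes 582 and 653 were, and of the 74 members 4 and 4 were. Among these members 4 had 1 FPKM or more. DDX5, listed in AG only, had 88.5 FPKM, and SNRPB, also in AG only, had 60.0 FPKM. RBM23, in AG only, had 6.53 FPKM, and DDX19B, in Control only, had 3.11 FPKM. A count of 0 would allow up to 3 fragments, or 0.0217, 0.158, 0.0144 and 0.0406 FPKM for these genes in the library that lists them, for counting error only. Each value lies above that limit, as any listed value from more than 3 fragments does, so the limit says nothing of the other library. That library has no value rather than a 0.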

How the results depend on the processing

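The median log2 ratio over the members ran from -0.04 to -0.01 over the alternatives tried. The median over all genes ran from -0.04 (pseudocount of 0.1 FPKM) to 0.00 (median of ratios, the setting at which the members were at -0.01). Under other filters the medians did not move together. As deposited the members were at -0.041 and all genes at -0.031. With a mean of at least 5 FPKM they were at -0.045 and -0.025, and with no filter at -0.041 and -0.012. The 1 member past 1.5-fold higher, DDX60L, became 0 members with a pseudocount of 5 FPKM. At 1.2-fold 2 members were higher and 1 lower, beside 11.1% and 13.7% of all expressed genes, and at 2-fold 0 were higher. The 16 intervals below 1 became 10 when the 16 members with a named pseudogene were left out, which leaves fewer members. Of 355 values of single members under the alternatives 351 stayed within their counting interval. The values under other filters are among them, and a filter leaves the ratio of a gene unchanged, so those could not leave the interval. The 4 that left it were DDX60L, at 0.50 with a pseudocount of 5 FPKM, and, scaled by the median of ratios, DDX17 at 0.03 (also above 0, at 0.0041, under a common total), HNRNPA1 at -0.10 and HNRNPK at -0.09. Of 63 family medians 61 stayed within bounds, and both that moved were those of HNRNP, to -0.09 when scaled by the median of ratios and to 0.20 without members with pseudogenes. When scaled by the median of ratios 10 members near equal changed sign, and under a common total 3 did. The rescaled counts of roles and of the outside lists were added after seeing the data. No paired analysis was possible because each group has 1 library. Depth limits members with few fragments, such as PRPF18 with 113 and 107, to wide intervals.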
